A study of Mus musculus with 1073 samples.

Results

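The smooth muscle contractile genes described here are *Acta2*, *Tagln*, *Tagln2*, *Myl9*, *Cnn1*, *Cnn2*, *Tpm1*, *Tpm2* and *Actn1*. They were chosen by name, and all 9 are among the 15967 genes that passed the filter in both the count table and the CPM table. Single-cell RNA-seq was used in the study to follow blood and endothelial formation in the mouse yolk sac, and 926 cells of 13 sorted populations are compared here. Single cells were captured on Fluidigm C1 plates, and 1073 captured cells were sequenced before filtering. The labels name no embryo or pool for a cell, yolk sacs were pooled before the sort, and each population is therefore 1 sample. No test between populations was made, and differences are given as values over cells.

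The earliest 2 populations carried GFP in 1 copy of the *Flk1* (*Kdr*) locus (Flk1-GFP/+) and were sorted as Flk1-GFP+ after trypsin treatment, at E7.25 (neural plate stage, 73 and 74 cells in 2 sequencing lanes) and E7.75 (early headfold stage, 53 and 87 cells in 2 sequencing lanes). All later cells came from C57BL/6 yolk sacs treated with collagenase and dispase. The haematopoietic progenitor cells (HPC), which the labels call erythro-myeloid progenitors, were TER119- CDH5+ CD41+ at E8.25 (73 cells) and E8.5 (89 cells), and TER119- CDH5- CD45+ CD41low at E9.5 (46 cells) and E10.5 (87 cells). Primitive erythroid cells (EryP) were TER119+ CD41- CDH5- at E8.5 (66 cells) and also CD45- at E10.5, where only 3 cells passed the filter. Megakaryocytes (Mk) were CD41+ TER119- CDH5- at E8.5 (37 cells) and CD41high CD45- TER119- CDH5- at E10.5 (73 cells). Macrophages (Mac, 25 cells, E10.5) were CD45+ TER119- CDH5- CD41-. Endothelial cells (Endo) were CDH5+ TER119- CD41- at E8.5 (79 cells) and also CD45- at E10.5 (61 cells). No gate was set for mesenchyme or smooth muscle, so each contractile transcript was measured in cells sorted for a mesodermal, blood or vessel marker.

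Smooth muscle contracts when myosin pulls on filaments of smooth muscle actin, and tropomyosins, calponins and transgelins lie along or bind those filaments. Many genes of this apparatus are driven by serum response factor (SRF) with myocardin-family cofactors through a short A/T-rich element, the CArG box. The same proteins are not restricted to muscle: *Tagln2*, *Cnn2*, *Tpm1* and *Actn1* are widely used in the actin cytoskeleton, and megakaryocytes build a large contractile cytoskeleton before they release platelets. *Acta2* (ENSMUSG00000035783, chr19:34241090-34255590, minus strand) encodes smooth muscle alpha-actin. *Tagln* (ENSMUSG00000032085, chr9:45929619-45936058, minus strand) encodes transgelin, also named SM22-alpha, and *Tagln2* (ENSMUSG00000026547, chr1:172500047-172507380, plus strand) its broadly expressed relative. *Myl9* (ENSMUSG00000067818, chr2:156775420-156781658, plus strand) encodes a regulatory light chain of myosin. *Cnn1* (ENSMUSG00000001349, chr9:22099216-22109630, plus strand) encodes the calponin of differentiated smooth muscle, and *Cnn2* (ENSMUSG00000004665, chr10:79988584-79996062, plus strand) a calponin of many cell types. *Tpm1* (ENSMUSG00000032366, chr9:67022590-67049406, minus strand) and *Tpm2* (ENSMUSG00000028464, chr4:43514711-43523765, minus strand) encode tropomyosins. *Actn1* (ENSMUSG00000015143, chr12:80167547-80260371, minus strand) encodes the actin cross-linker alpha-actinin. Positions are on GRCm38, from GENCODE M21.

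CArG boxes are shown because they are the element by which several of these genes are known to be driven together. RefSeq promoters on GRCm38.p6 (250 bases before to 50 after a start) were found for 8 of the 9 genes. They were searched for the CArG box, which reads the same on both strands, allowing at most 1 C or G among its central A/T bases. *Acta2* held it at 84 and 34 bases before its RefSeq start (chr19:34255438-34255467 and chr19:34255388-34255417, minus strand), both within the first exon of GENCODE M21. *Myl9* held it at 161 and 99 bases (chr2:156775293-156775322 and chr2:156775355-156775384, plus strand) and *Cnn2* at 56 bases (chr10:79988534-79988563, plus strand), upstream of both genes. Capitals mark the element.
*Acta2*, 84 bases before the start: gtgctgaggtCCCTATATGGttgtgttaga
*Acta2*, 34 bases before the start: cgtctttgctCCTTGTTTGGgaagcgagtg
*Myl9*, 161 bases before the start: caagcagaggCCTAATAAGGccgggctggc
*Myl9*, 99 bases before the start: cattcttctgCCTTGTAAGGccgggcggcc
*Cnn2*, 56 bases before the start: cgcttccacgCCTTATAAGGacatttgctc
The form with no C or G in the centre was present in 535 of 32851 promoters (1.63%), among them those of *Myl9* (at 161 bases) and *Cnn2*, and the looser form in 3280 (9.98%). *Tagln2*, *Cnn1*, *Tpm1*, *Tpm2* and *Actn1* held none within this window, and *Tagln* had no entry.

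Total counts per cell ranged from 483830 to 5943204 (median 1887347), and the median of a population from 1555237 in E8.5 HPC to 3536330 in E8.5 Mk. Levels are given as the authors' CPM, counts scaled per cell, and a gene counted as detected at 1 count or more. The cells were sequenced on 2 flow cells. The cells of E7.25 were on the first with all cells of E8.25 and E8.5, and those of E7.75 on the second with all of E9.5 and E10.5, so that stage and flow cell cannot be told apart between E7.25 and E7.75 or between E8.5 and E10.5. Each *Flk1*-GFP+ stage was sequenced in 2 lanes of its flow cell, and values are given by lane where they differ. Both *Xist* and Y-linked transcripts (5 counts or more of each) were found in 293 of 926 cells and most often in E8.5 Endo (59 of 79), and results that rest on these cells are given without them in the closing section. None of 6 endothelial markers was at 0 in either Endo population, and none of 6 megakaryocyte markers in E10.5 Mk. The summed primitive erythroid markers had a median of 25294 CPM in E8.5 Mk against 20.9 CPM in E10.5 Mk, and the summed megakaryocyte markers a median of 287.5 CPM against 6475 CPM, so the E8.5 gate held cells with high erythroid transcripts.

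The 9 genes fell into broadly detected and restricted members. *Tagln2*, *Cnn2*, *Tpm1* and *Actn1* were found in nearly every cell of most populations, with *Cnn2* missing from all 66 E8.5 EryP cells, a count of 0 that leaves room for a share of up to 4.55%. *Acta2*, *Tagln*, *Myl9*, *Cnn1* and *Tpm2* were found in a part of the cells of the *Flk1*-GFP+ populations. Per kilobase of exon, the mean at E7.75 was highest for *Cnn2* at 207 CPM, followed by *Acta2* at 97.5, *Tpm1* at 95.1, *Tagln2* at 92.4 and *Tagln* at 60.3 CPM. *Actn1* had 44.1, *Myl9* 27.9, *Tpm2* 7.34 and *Cnn1* 1.54 CPM per kilobase.

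Across the 13 populations, *Acta2*, *Tagln* and *Tpm1* had their highest mean at E7.75 and *Cnn1* at E7.25. *Tagln2*, *Myl9* and *Actn1* were highest in E10.5 Mk, *Cnn2* in E8.5 Endo and *Tpm2* in Mac. The order of *Acta2* means was 214 CPM at E7.75, 122.1 CPM in E10.5 Endo, 22.6 CPM at E7.25, 21.0 CPM in E8.5 Endo and 9.07 CPM in E8.25 HPC, and all others were at 4.03 CPM or less. The *Tagln* order began with 119.8 CPM at E7.75, 35.8 CPM at E7.25, 32.1 CPM in E8.5 Endo and 13.3 CPM in E10.5 Endo. With 1 sample a population, no spread over samples stands behind these orders, and the ranges of single cells overlapped between all neighbours. The E8.25 HPC mean of *Acta2* rested on 1 cell of 624 CPM and was 0.532 CPM without it.

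**Figure D1:**
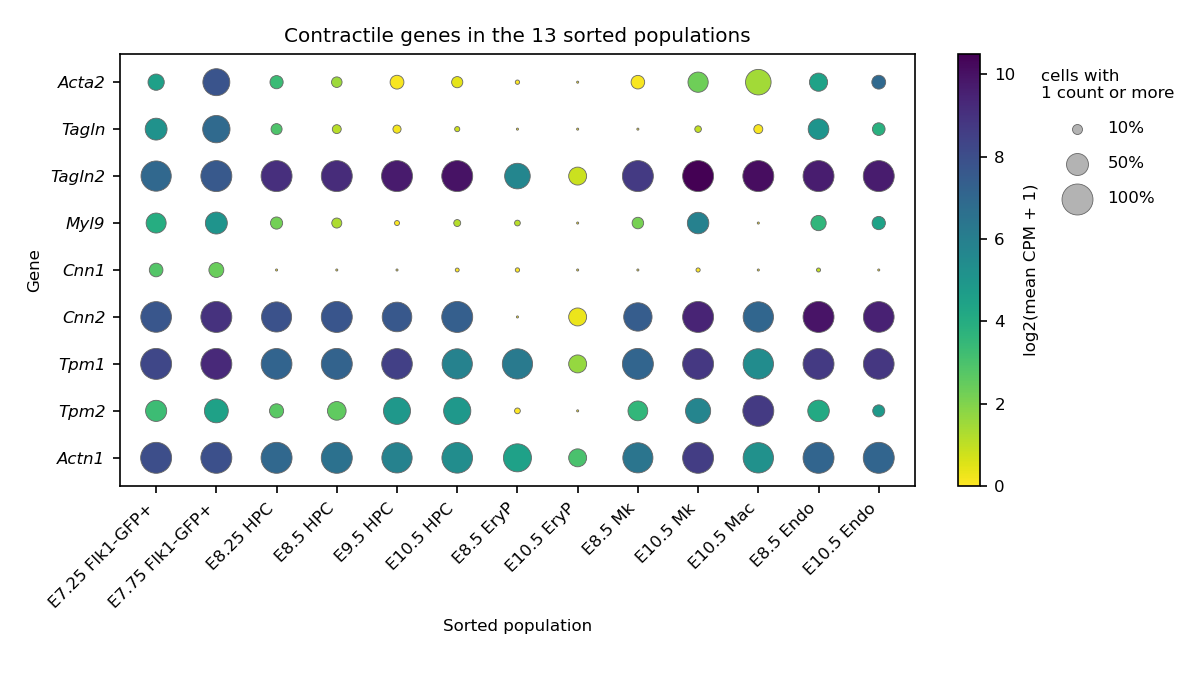
Level of the 9 genes in the 13 sorted populations. Colour is the log2 of mean CPM + 1 over cells, and dot size the share of cells in which the gene was detected. *Acta2* and *Tagln* are highest at E7.75, at 214 and 119.8 CPM, and *Myl9* and *Actn1* in E10.5 Mk, at 60.3 and 389 CPM.

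The first question was when the genes come on between E7.25 and E7.75. *Acta2* and *Tagln* had the largest ratios of the 9: *Acta2* was present in 40 cells (27.2%) of the earlier stage and 75.7% of the 140 of the later, and *Tagln* in 49.7% and 77.9%. Of the 9 genes, 6 were 2-fold or more higher at E7.75 (*Acta2*, *Tagln*, *Cnn2*, *Tpm2*, *Myl9* and *Tpm1*) and 0 were 2-fold or more lower, while 3.78% of the 8414 genes at a mean of 10 CPM or more were higher and 4.78% lower. The count was 2, *Acta2* and *Tagln*, when the E7.75 cells of lane 7 were left out. Of the 9 genes, 8 passed that minimum, *Cnn1* being under it. The median log2 ratio of the 9 was 1.06, against 0.03 over all genes at the minimum.

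The actin *Acta2* ranged from 0 to 1381 CPM (median 0) over the E7.25 cells and from 0 to 2191 CPM (median 15.7) over the E7.75 cells. Its mean was 22.6 ± 130.9 CPM (SD over cells) and 214 ± 414 CPM (SD over cells), a log2 ratio of 3.19. At a limit of 10 counts it was found in 13.6% and 51.4% of cells, and at an equal depth of 480000 counts a cell in 19.0% and 65.0%. The E7.25 mean was 13.3 CPM without the cell at 1381 CPM. Most E7.25 cells were at 0, while the upper quartile of the E7.75 cells was 206 CPM.

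The transgelins differed from each other. *Tagln* ranged from 0 to 600 CPM (median 0) at E7.25 and from 0 to 1860 CPM (median 21.4) at E7.75, with a log2 ratio of means of 1.72 and, at equal depth, shares of 42.9% and 65.0%. It was already present in 37.4% of E7.25 cells at a limit of 10 counts, where *Acta2* was in 13.6%. *Tagln2* had a median of 95.7 CPM (highest 601) at E7.25 and 169.7 CPM (highest 836) at E7.75, a log2 ratio of 0.61 that did not reach 2-fold. On the opposite strand *Tagln* overlaps *Pcsk7* and an antisense gene, and the strand setting of the counting is not given in the sources used here, so reads of these genes cannot be told apart.

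The calponins also differed from each other, but here the broadly expressed gene had the higher ratio. *Cnn2* had medians of 132.9 CPM (0 to 1658) and 387 CPM (2.1 to 2889), a log2 ratio of means of 1.31. *Cnn1*, the smooth muscle calponin, was at a mean of 6.05 CPM at E7.25 and 4.22 CPM at E7.75 (log2 ratio -0.43), in 19.0% and 22.9% of cells, with medians of 0 and highest cells at 145.7 and 189 CPM. Elsewhere *Cnn1* was found in at most 1.52% of the cells of a population.

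The tropomyosins were both at the limit of a 2-fold difference. *Tpm1* had medians of 223 CPM (0.8 to 1630) and 490.2 CPM (3.5 to 4260), with a log2 ratio of means of 1.02. *Tpm2* had a median of 0 CPM (highest 87.9) at E7.25 and 1.65 CPM (highest 622) at E7.75, in 46.3% and 59.3% of cells, with a log2 ratio of 1.18. *Myl9*, the myosin light chain, was found in 41.5% and 50.0% of cells, with means of 15.1 and 32.5 CPM (log2 ratio 1.06). The cross-linker *Actn1* had medians of 217 and 222 CPM and a log2 ratio of means of -0.08. It overlaps *Gm47765* and the antisense genes *Gm47767* and *Gm47766*, whose reads likewise cannot be told apart.

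The lanes of a stage were not alike. The mean of *Acta2* was 16.4 CPM in lane 6 and 28.7 CPM in lane 7 at E7.25 (73 and 74 cells), and 315.9 CPM in lane 7 and 151.97 CPM in lane 8 at E7.75 (53 and 87 cells). Its shares were 30.1%, 24.3%, 88.7% and 67.8% in the same order, so both E7.75 lanes lay above both E7.25 lanes. *Tagln* gave 35.9, 35.6, 154.9 and 98.5 CPM. *Cnn2* means were 169.6, 238.7, 706.6 and 388.1 CPM, and those of *Tpm1* 278.6, 329.7, 789.1 and 512.0 CPM, again with no overlap between stages. *Tpm2*, at 7.7, 9.9, 31.2 and 15.3 CPM, and *Myl9*, at 10.4, 19.7, 38.0 and 29.1 CPM, kept that order. *Actn1* overlapped, with 313.2 and 204 CPM at E7.25 and 287.7 and 217.8 CPM at E7.75. Without lane 7 of E7.75 the log2 ratio of *Acta2* was 2.70 and of *Tagln* 1.44, while *Cnn2* was at 0.92, *Myl9* at 0.90, *Tpm1* at 0.75 and *Tpm2* at 0.73.

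**Figure D2:**
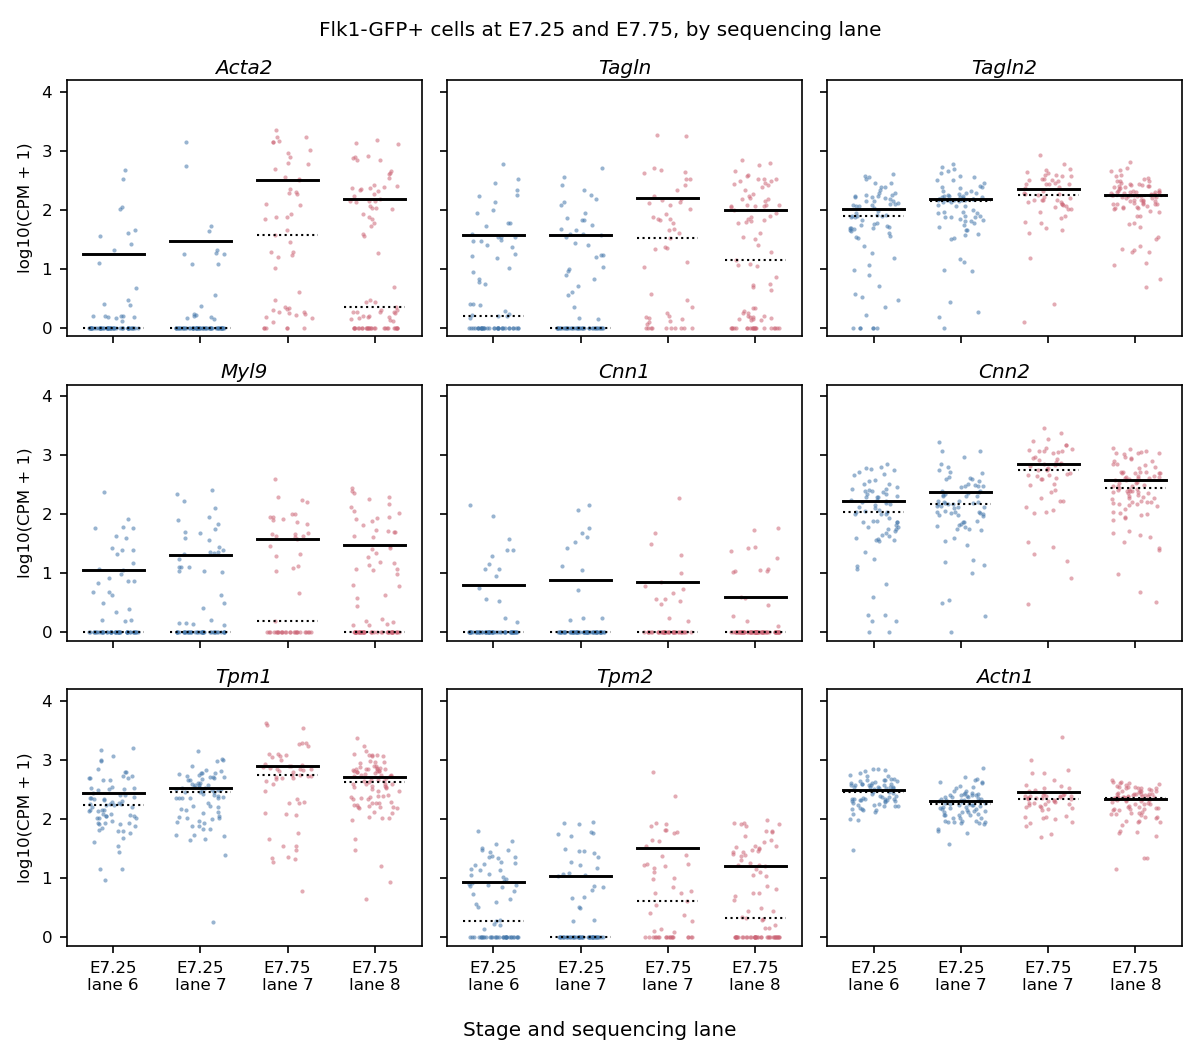
CPM of the members in single E7.25 and E7.75 *Flk1*-GFP+ cells, by sequencing lane, on an axis of log10 of CPM + 1 (points are cells, solid bars means and dotted bars medians). The E7.75 lanes lie above the E7.25 lanes for *Acta2* (means 315.9 and 151.97 against 16.4 and 28.7 CPM), and the *Actn1* lanes overlap.

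Of the wider list of contractile and actin-associated genes, 28 of 32 were in the filtered table, and 22 of the 28 passed the minimum of 10 CPM. At E7.75, 4 were 2-fold or more higher and 0 lower, where 3.78% and 4.78% of all genes were. The 4 were *Actg2* (gamma smooth muscle actin, log2 ratio 1.97), *Myh9* (non-muscle myosin heavy chain, 1.23), *Pdlim7* (1.15) and *Csrp1* (1.12), and the median of the list was 0.59. Of 14 genes for regulators, such as SRF cofactors and mesodermal transcription factors, 0 were 2-fold higher and 2 lower, *Gata4* (log2 ratio -1.29) and *Klf4* (-1.08). The same shares of all genes apply, and 9 of the 14 passed the minimum. Summed markers of mesenchyme (*Col1a1*, *Col1a2*, *Col3a1*, *Pdgfra*, *Pdgfrb*, *Msx1*, *Msx2*, *Hand1*) had a median of 348 CPM at E7.25 and 413 CPM at E7.75. None of the 8 was at 0 in either population. Summed markers of nascent mesoderm had a mean of 352 CPM at E7.25 and 47.7 CPM at E7.75. These markers moved with stage beside the contractile genes, and their part in the difference was not tested.

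The second question was whether the genes were detected in the same cells. *Acta2* and *Tagln* were both found in 23 cells of E7.25 (15.6%, exact 95% interval 10.2 to 22.5) and in 92 of 140 at E7.75 (65.7%, 57.2 to 73.5). The intervals cover counting error only. At E7.25, *Tagln* was present in 57.5% of the cells with *Acta2* and 46.7% of those without it. At E7.75 it was in 86.8% and 50.0%. Thinning to equal depth gave both genes in 12.2% and 55.0% of cells, with *Tagln* in 64.3% against 37.8% at E7.25 and 84.6% against 28.6% at E7.75. In the lanes of E7.75, 73.6% and 60.9% of cells had both.

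The levels of these genes followed each other within E7.75. Spearman's rho of *Acta2* with *Tagln* was 0.25 over the E7.25 cells (0.28 and 0.21 by lane) and 0.77 over the 140 E7.75 cells (0.83 and 0.76 by lane), and it was 0.33 and 0.76 at equal depth. These are descriptions over the cells of 1 sample a stage, and the E7.75 cells with *Acta2* were deeper (median 2139909 counts) than those without it (1228708). Ranked against 11065 genes by the lower rho of the 2 E7.75 lanes, *Tagln* was the gene most like *Acta2* (0.76). It was followed by *Pmp22* (0.74), *Plac8* (0.71), *Tmsb4x* (0.70) and *Slc2a1* (0.70), while *Cnn2* was in place 23, *Tpm1* in 24, *Myl9* in 51, *Actn1* in 815 and *Tagln2* in 1758. At E7.25, *Tagln* was in place 86 (0.21) and *Tpm1* in place 4 (0.32), a ranking added after the E7.75 values were seen.

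**Figure D3:**
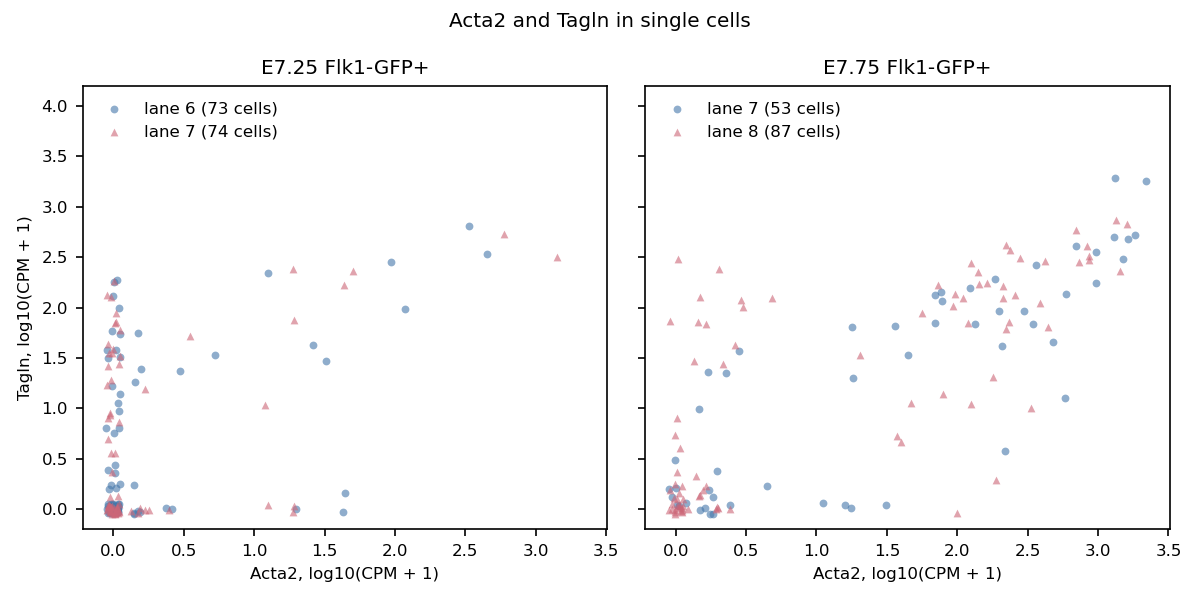
*Acta2* against *Tagln* in single *Flk1*-GFP+ cells of E7.25 and E7.75, both on axes of log10 of CPM + 1 (symbols are lanes, and points are shifted slightly at random to separate them). Both genes are present in 23 E7.25 cells (15.6%) and 92 E7.75 cells (65.7%), where rho is 0.77.

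Other members joined this pattern to different degrees. At E7.75, *Acta2* had a rho of 0.67 with *Cnn2*, 0.67 with *Tpm1* and 0.56 with *Myl9*, but 0.13 with *Tagln2*. *Cnn2* and *Tpm1* went together at both stages, with a rho of 0.61 at the earlier and 0.70 at the later stage. The median over the 36 pairs of members was 0.23 at E7.25, 0.34 at E7.75 (0.47 and 0.32 by lane) and 0.18 in E10.5 Mk. *Myl9* was found in 58.5% of E7.75 cells with *Acta2* and 23.5% of those without, *Tpm2* in 67.9% and 32.4%, and *Cnn1* in 27.4% and 8.82%. At E7.25 the same pairs of shares were 57.5% and 35.5% for *Myl9*, 47.5% and 45.8% for *Tpm2*, and 22.5% and 17.8% for *Cnn1*.

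**Figure D4:**
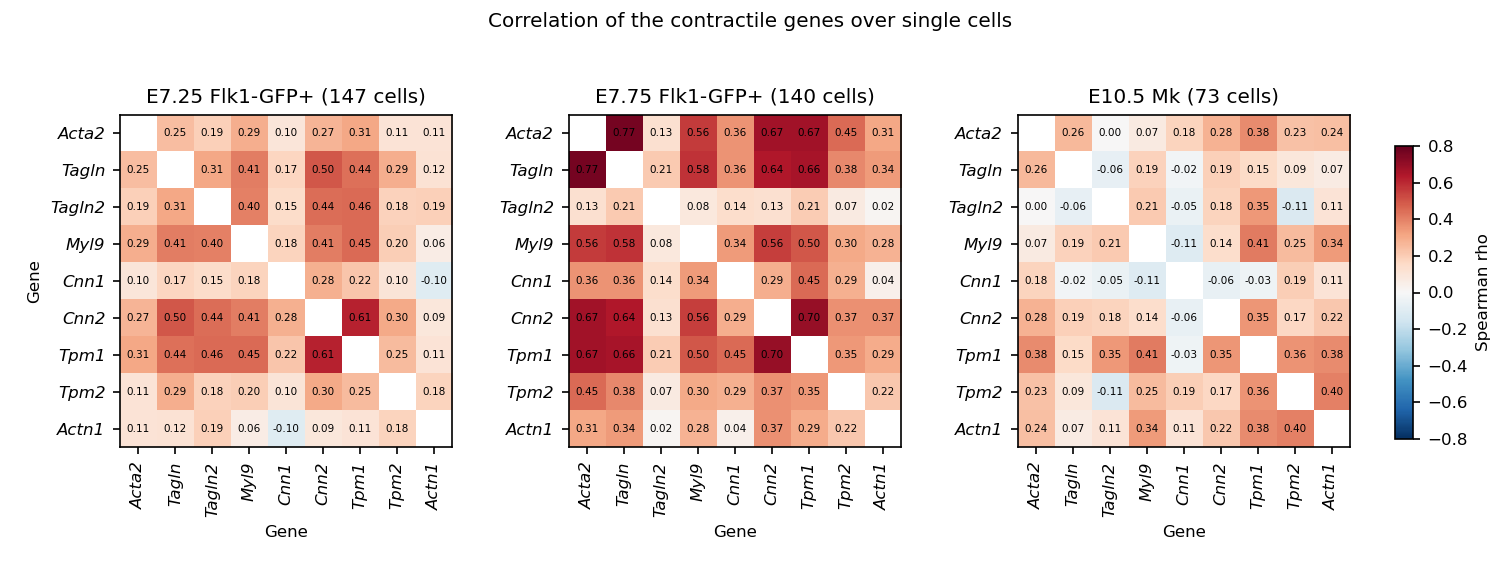
Spearman's rho between the CPM of each pair of members over the cells of E7.25, E7.75 and E10.5 Mk. At E7.75 *Acta2*, *Tagln*, *Cnn2* and *Tpm1* form a block of high values, with *Acta2* and *Tagln* at 0.77, and the median of the 36 pairs in E10.5 Mk is 0.18.

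The number of members in a cell was also higher at the later stage. A cell held 5.77 ± 1.37 of the 9 genes at E7.25 and 6.86 ± 1.46 at E7.75 (SD over cells), or 5.42 and 6.43 at equal depth. At least 7 were present in 32.0% of cells at the earlier and 59.3% at the later stage. All 9 were found in 4 cells at E7.25 and 19 cells at E7.75, and in 0 cells of any other population. The means elsewhere were 4.59, 4.65, 4.89 and 4.91 in HPC from E8.25 to E10.5, 5.52 and 4.66 in Endo, 4.51 and 5.62 in Mk, 5.64 in Mac and 2.55 in E8.5 EryP.

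Within E7.75, the genes were also read beside genes of early blood and endothelium. Cells expressing 4 or more of 6 genes (*Tal1*, *Lmo2*, *Gata2*, *Fli1*, *Kit* and *Hhex*) were called haemato-endothelial, which is a range of a count and not a cell type, and 25 cells had 3 of them and 20 had 4. *Acta2* was found in 72.5% of these 91 cells and 81.6% of the 49 others, with medians of 0.960 and 102.6 CPM and means of 159.2 and 315.9 CPM. The means by lane were 194.5 and 552 CPM in lane 7, and 137.1 and 179 CPM in lane 8. *Tagln* was at 79.5 and 194.8 CPM, *Cnn2* at 399 and 712 CPM, *Tpm1* at 503 and 829 CPM and *Myl9* at 23.9 and 48.4 CPM. *Tagln2*, at 194.5 and 189 CPM, and *Actn1*, at 237 and 257 CPM, had close means in the classes. The cells of the class held 6.65 members and the others 7.24, while at E7.25 the classes (86 and 61 cells) both held 5.77.

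Mesenchyme markers went with the same members. Over E7.75 cells, the summed mesenchyme markers had a rho of 0.81 and 0.63 (lanes 7 and 8) with *Tpm1*, 0.71 and 0.42 with *Acta2*, 0.66 and 0.50 with *Cnn2*, and 0.62 and 0.47 with *Tagln*. *Tagln2* gave 0.16 and 0.03. At E7.25 (lanes 6 and 7), *Tpm1* gave 0.33 and 0.51, *Acta2* 0.16 and 0.05, *Cnn2* 0.20 and 0.36, and *Tagln* 0.27 and 0.32. There *Tagln2* gave 0.04 and 0.14, and *Actn1* -0.38 and -0.22. The number of haemato-endothelial genes in a cell had a rho of -0.59 and -0.13 with *Acta2* at E7.75. That relation differed between lanes, and its cause was not tested.

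Against E7.75, *Acta2*, *Tagln*, *Myl9* and *Cnn1* were 2-fold or more lower in both CDH5+ populations of E8.5. These populations also differ from the E7.75 cells in flow cell, sorting gate, *Flk1*-GFP genotype and enzyme treatment. Stage cannot be told apart from these differences. In E8.5 HPC, 8 of the 9 genes were 2-fold or more lower than at E7.75, where 9.01% of all genes were. *Cnn1* was among the 8 although it was under the minimum of 10 CPM. *Acta2* was at 1.92 CPM (log2 ratio -6.20), *Tagln* at 1.19 CPM (-5.78) and *Myl9* at 1.46 CPM (-3.77), and all 3 had a median of 0. *Tagln2* went the other way, at 581.0 CPM with a log2 ratio of 1.59 (12.1% of all genes were higher). A single cell of 157.3 CPM carried most of the *Acta2* mean, which was 0.150 CPM without it.

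In E8.5 Endo, 4 of the 9 genes were 2-fold or more lower than at E7.75 (11.0% of all genes). They were *Acta2* (log2 ratio -3.29), *Tagln* (-1.87), *Myl9* (-1.44) and *Cnn1* (-1.40, under the minimum of 10 CPM). *Acta2* was found in 34.2% of these cells (0 to 783 CPM, median 0) and *Tagln* in 44.3% (0 to 378 CPM, median 0). *Tagln2* was higher by 2.07 on the log2 scale (18.8% of all genes were higher). *Cnn2* reached its highest mean of all populations, 978 CPM, against 509 CPM at E7.75. *Tpm1* at 415 CPM, *Actn1* at 136.3 CPM and *Tpm2* at 16.6 CPM were within 2-fold of E7.75. The summed mesenchyme markers had a median of 5.96 CPM in E8.5 Endo and 0 CPM in E8.5 HPC. Of the 79 E8.5 Endo cells, 59 were among those with transcripts of both sexes. Without such cells 6 genes rather than 4 were lower, and the share of all genes lower was 15.2% rather than 11.0%.

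At E10.5 few endothelial cells held the restricted genes. *Acta2* was found in 19.7% of E10.5 Endo cells, *Tagln* in 16.4%, *Myl9* in 18.0% and *Tpm2* in 14.8%. Against E8.5 Endo, 1 member was 2-fold or more higher and 1 lower, where 19.3% and 14.9% of all genes were. They were *Acta2* (log2 ratio 2.48) and *Tagln* (-1.21). The *Acta2* mean of 122.1 CPM rested on 1 cell of 6441 CPM and was 16.8 CPM without it. That cell, of 605402 counts, had 9400 CPM of *Tpm1* and 1280 CPM of *Tpm2* together with 2527 CPM of *Cdh5*, 1697 CPM of *Pecam1* and 3079 CPM of *Kdr*, and 0 counts of all 8 mesenchyme markers. Without the highest cell the *Myl9* mean was 4.67 rather than 21.0 CPM and the *Tpm2* mean 7.47 rather than 28.3 CPM.

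The third question was which members return in megakaryocytes. The E10.5 Mk and HPC shared a flow cell. In E10.5 Mk, 5 of the 9 genes were 2-fold or more higher than in E10.5 HPC and 0 lower, where 13.8% of 8555 genes were higher and 9.54% lower. They were *Myl9* (log2 ratio 4.78), *Actn1* (3.21), *Tpm1* (2.94), *Cnn2* (2.10) and *Acta2* (1.89, under the minimum of 10 CPM). The *Acta2* ratio rested on 1 cell of 274 CPM, which carried 92.9% of its sum, and was 0.07 without the highest cell of each population, leaving 4 genes. With CPM by each cell's total in place of the scran scaling the 5 genes were still called, while the higher calls over all genes went from 59.1% of calls to 40.6%. *Tpm2* (0.79), *Tagln2* (0.50), *Tagln* (0.16) and *Cnn1* (-0.01) did not reach 2-fold. The median of the 9 was 1.89, against -0.00 over all genes, and is the *Acta2* ratio that rested on 1 cell.

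*Myl9* had the largest ratio of the 9. It was found in 35 of 73 E10.5 Mk cells (47.9%, and 41.1% at equal depth), 4 of 87 E10.5 HPC (4.60%), 5 of 37 E8.5 Mk (13.5%) and 0 of 25 Mac, for which the limit is a share of 12.0%. Its level ran from 0 to 1355 CPM (median 0, mean 60.3) in E10.5 Mk and from 0 to 83.6 CPM (median 0, mean 1.23) in E10.5 HPC. *Actn1* had a median of 338 CPM (3.3 to 2109) in E10.5 Mk and 35.5 CPM (0 to 209) in E10.5 HPC, and *Tpm1* medians of 273 CPM (0.5 to 9027) and 44.9 CPM (0 to 236). *Cnn2* had medians of 640.5 CPM (38.9 to 2304) and 111.2 CPM (0.3 to 888). The upper cells of E10.5 Mk lay above every HPC for all 4 genes, and the lower cells overlapped. Without its highest cell the *Tpm1* mean of E10.5 Mk was 318 rather than 438 CPM. E10.5 Endo, on the same flow cell, had means of 745 CPM of *Cnn2* and 454 CPM of *Tpm1* (305 CPM without its highest cell). The *Cnn2* mean of E10.5 Mk was 700 CPM, so high levels of these 2 genes were not particular to Mk. *Myl9* and *Actn1* were lower in E10.5 Endo, at 21.0 and 135.6 CPM, than in E10.5 Mk, at 60.3 and 389 CPM.

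*Acta2*, *Tagln* and *Cnn1* were far below their E7.75 level in both Mk populations. *Tagln* was found in 3 of 73 E10.5 Mk cells (4.11%) and 0 of 37 E8.5 Mk cells, for which the limit is a share of 8.11%, and *Cnn1* was at a mean of 0.0116 CPM in E10.5 Mk. *Acta2* was found in 42.5% of E10.5 Mk cells, but with a median of 1 count where found, and in 13.7% at equal depth. Its sequence is close to that of *Actb*, which was at 19275 CPM in E10.5 Mk and 25992 CPM in Mac, and reads of near-identical actins are uncertain. Summed over cells, there were 247 counts of *Acta2* beside 2588271 of *Actb* in E10.5 Mk and 48 beside 1629115 in Mac, but 72057 beside 3097943 at E7.75. In Mac it was found in 68.0% of cells, at a median of 0.244 CPM.

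**Figure D5:**
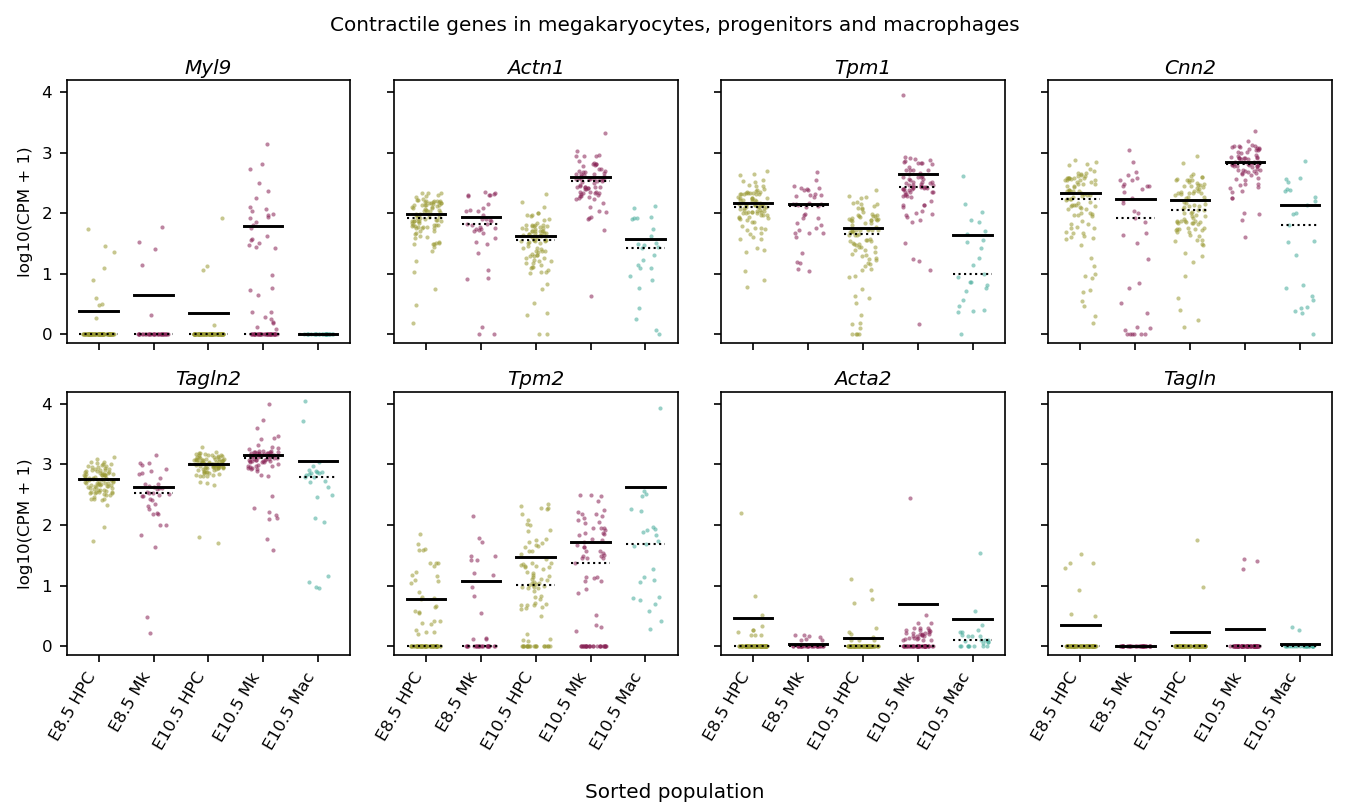
CPM of 8 members (all but *Cnn1*) in single cells of E8.5 HPC, E8.5 Mk, E10.5 HPC, E10.5 Mk and E10.5 Mac, on an axis of log10 of CPM + 1 (points are cells, solid bars means and dotted bars medians). *Myl9* is found in 35 of 73 E10.5 Mk cells and 4 of 87 E10.5 HPC cells, and *Actn1*, *Tpm1* and *Cnn2* have their highest medians of these populations in E10.5 Mk.

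At E8.5 the megakaryocyte gate did not show the increase. Of the 9 genes only *Tpm2* (log2 ratio 1.01, means of 10.9 and 4.95 CPM) was 2-fold or more higher in E8.5 Mk than in E8.5 HPC, and *Acta2* (-1.44) and *Tagln* (-1.13) were lower, where 5.34% and 8.58% of all genes were. All 3 called genes were under the minimum of 10 CPM, and leaving out the highest cell of each member in each population ended all 3 calls. *Actn1* was at 84.3 and 94.1 CPM, *Tpm1* at 138.3 and 146.5 CPM and *Cnn2* at 173 and 211 CPM. Within E8.5 Mk, the 11 cells under 10000 CPM of *Hbb-bh1*, an embryonic globin, had means of 406 CPM of *Cnn2*, 684 CPM of *Tagln2* and 195 CPM of *Tpm1*, and the 26 other cells 74.9, 298 and 114.2 CPM. *Myl9* was found in 3 of the 11 and 2 of the 26 cells. With only these 11 cells, *Tpm2* (log2 ratio 1.84) and *Myl9* (1.36) were 2-fold or more higher than in E8.5 HPC, where 10.8% of all genes were. *Myl9* was under the minimum of 10 CPM there, with means of 5.29 and 1.46 CPM. *Cnn2* was at 0.94 rather than -0.28. The summed erythroid markers had a rho of -0.67 with *Tagln2* and -0.60 with *Cnn2* over the 37 cells, and their part in the stage difference was not tested.

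Between E8.5 Mk and E10.5 Mk, which are on different flow cells, 7 of the 9 genes were 2-fold or more higher at E10.5, where 14.6% of all genes were higher and 11.4% lower. The log2 ratios were 3.78 for *Myl9*, 2.22 for *Acta2*, 2.19 for *Actn1*, 2.12 for *Tpm2*, 2.01 for *Cnn2*, 1.80 for *Tagln2* and 1.65 for *Tpm1*. With only the 11 E8.5 cells of low *Hbb-bh1*, 6 genes were called, where 18.3% of all genes were higher, and *Cnn2* (0.78) was not. *Acta2* was under the minimum of 10 CPM, and without its highest cell it was at 0.28. This comparison shares its E10.5 Mk cells with the one against E10.5 HPC.

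Within E10.5 Mk, the members went with megakaryocyte genes to different degrees. The summed megakaryocyte markers had a rho of 0.51 with *Myl9*, 0.45 with *Actn1* and 0.41 with *Tpm1* over the 73 cells, but 0.14 with *Tagln2* and 0.09 with *Cnn2*. The 35 cells with *Myl9* had means of 6460 CPM of *Pf4* (platelet factor 4) and 382 CPM of *Gp9* (a platelet glycoprotein), and the 38 cells without it 3467 and 245 CPM. *Tpm1* was at 614 CPM in the first and 275.5 CPM in the second. The cells with *Myl9* were deeper, with a median of 1810897 counts against 1467750. Mesenchyme markers summed to a mean of 2.88 CPM in E10.5 Mk, with *Col3a1*, *Pdgfrb* and *Hand1* at 0.

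Of the 28 genes of the contractile list, 17 were 2-fold or more higher in E10.5 Mk than in E10.5 HPC and 4 lower, where 13.8% of all genes were higher and 9.54% lower, and the median log2 ratio of the list was 1.52. Among the higher genes were *Mylk*, the kinase that phosphorylates myosin light chains (4.86), *Cald1*, the actin-binding caldesmon (4.58), *Tpm4*, a tropomyosin (3.37), *Smtn*, smoothelin (3.00), and *Actc1*, a cardiac actin (5.02, found in 21.9% of cells). *Vim*, the intermediate filament vimentin, was among the lower genes (-4.30), with *Synpo2*, *Cnn3* and *Myl12b*. Of 14 regulators, 1 was higher, the SRF cofactor *Mkl1* (46.9 against 10.4 CPM, log2 ratio 2.07), and 5 were lower.

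In Mac, 2 members were 2-fold or more higher than in E10.5 HPC and 1 lower, where 22.1% and 22.2% of all genes were. They were *Tpm2* (log2 ratio 3.78) and *Acta2* (1.01), and *Myl9* (-1.16), the last 2 under the minimum of 10 CPM. The *Acta2* mean of 1.75 CPM in Mac rested on 1 cell of 34.0 CPM (77.7% of the sum) and was 0.408 CPM without it, against 0.363 CPM in E10.5 HPC. The *Myl9* mean of 1.23 CPM in E10.5 HPC likewise rested on 1 cell of 83.6 CPM (78.0% of the sum) and was 0.274 CPM without it, so that neither call was made without 1 cell. *Tpm2* was found in all 25 Mac cells, from 0.9 to 8389 CPM (median 47.7), and was at 414 CPM on average, or 81.3 CPM without the highest cell. E10.5 HPC had a median of 9.33 CPM of *Tpm2* (0 to 221). *Myl9* and *Cnn1* were at 0 in Mac, and *Actn1* (median 25.3 CPM) and *Tpm1* (median 8.95 CPM) were under the medians of E10.5 HPC. The EryP populations held the lowest means of most members, with *Tagln* in 0 of the 66 E8.5 cells.

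Genes whose means most resembled a member over the 13 populations were named by Pearson's r of log2 CPM + 1. They were *Hsd11b2* for *Acta2* (0.96), *Rhou* among those for *Tagln*, *Hexa* for *Tagln2* (0.98), *Xkr6* and *Tgfb1i1* for *Myl9* (0.96 and 0.94), *Capn2* for *Cnn2* (0.97) and *Lrrk1* for *Tpm2* (0.97). *Acta2* and *Tagln* were alike over the populations (0.92), and *Acta2* and *Tagln2* were not (0.20). These are 13 points that share flow cells and gates.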

How the data were processed

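Read counts per gene were made by the authors, who used Rsubread on paired reads of 100 bases from Nextera XT libraries, with Ensembl release 84 of the mouse (GRCm38) as reference, and then featureCounts. Versions and the strand setting are not given in the sources used here. The signal values are the deposited CPM table, which the authors made from the counts left by their scater filter, with scran size factors, and which sum to between 699615 and 4176737 per cell. Reads carry no molecular identifiers, so that a count is not a molecule.

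Groups came from the sample labels, and the E7.25 population held 147 cells, the E7.75 population 140. The members and all lists of genes were chosen with earlier results of these data known. A ratio is the log2 of mean CPM + 1 between populations, called at 2-fold. The share of all genes called was taken over genes at a mean of 10 CPM or more in the pair. Members and genes of the fixed lists were called without that minimum. Shares have exact Clopper-Pearson 95% intervals, and a gene found in 0 cells was given 3 cells as its limit. Cells were thinned to 480000 counts for equal depth, which kept all cells. No test was made, because each population is 1 sample. The count table with genes outside the filter served only for 4 genes of the contractile list. Named genes are the members, the genes called in each fixed list, and the genes most like a member. A simulation with known fold changes was used to check the ratio script. Figures were drawn with matplotlib 3.10.9, and the values computed with scipy 1.17.1, pandas 2.3.3 and numpy 2.4.6 under Python 3.11.15. The barcoding experiments and the 10x data were not analysed here.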

Additional observations from a re-analysis of the deposited data

Results flagged for a closer look

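Of the contractile list, 4 genes were outside the filtered table and were read from the table of all genes in the same cells, where the limit that a count of 0 allows is 3 cells. Among these, *Myh11*, the smooth muscle myosin heavy chain, was found in 4.29% of E7.75 cells (6 of 140, 14 counts in all), and also in 6.85% of E8.25 HPC and 5.48% of E10.5 Mk. *Tagln3*, a transgelin of neural cells, was present in 13.6% of cells at E7.25 but 2.14% at E7.75. *Ppp1r14a*, an inhibitor of myosin phosphatase, had shares of 17.0% at E7.25, 27.9% at E7.75 and 21.9% in E10.5 Mk. Apart from *Myh11* at E7.25 and *Tagln3* at E7.75, these shares lie above that limit, in data that no comparison here used. They were drawn to attention for that reason, and they have no replicate check.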

How the results depend on the processing

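The count of 6 members higher at E7.75 than at E7.25 was 3 with a pseudocount of 10 CPM and 2 at a limit of 3-fold or without E7.75 lane 7. The single member higher in E8.5 Mk than in E8.5 HPC became 2 with a pseudocount of 0.1 CPM or without the E8.5 Mk cells of high *Hbb-bh1*, and 0 with a pseudocount of 10 CPM, CPM by the cell total, thinning, medians, a 3-fold limit, or without the highest cell of each member. The 4 members lower in E8.5 Endo than at E7.75 became 2 with a pseudocount of 10 CPM or a 3-fold limit. The share of E7.75 cells with *Acta2* and *Tagln* was 45.0% at 10 counts, 55.0% at 480000 counts and 73.6% without E7.75 lane 8. Of 90 alternative values for counts of members and for this share, 74 stayed within their limits and 16 moved, and of 489 for single members 419 stayed and 70 moved, with 0 called values changing sign. Values under 2-fold could change sign, such as *Actn1* at E7.75 against E7.25 (-0.36 to 0.26 over the lanes left out). The count in E10.5 Mk against HPC stayed at 4 to 5. CPM by the cell total moved the median of all genes in that comparison to -0.23, and medians over cells to -0.51. Without the highest cell of each member the count at E7.75 was 4. Without cells that hold both *Xist* and Y-linked counts, 5 members were higher at E7.75, 5 in E10.5 Mk than in HPC and 8 in E10.5 than in E8.5 Mk, and *Acta2* and *Tagln* were at -0.06 and -0.07 between E8.5 Mk and HPC. The alternatives that leave out the highest cell or cells of high *Hbb-bh1* were chosen after seeing the data. No paired analysis was possible because the results come from no test and each population is 1 sample. Members near 1 count in a cell, such as *Acta2* in E10.5 Mk, are limited by depth.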
